A study of Mus musculus with 2 samples.

Results

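A set of 10 genes that respond to low oxygen and lie outside the glycolytic pathway was followed in organoids grown from the normal urothelium (bladder lining) of mice. The genes were fixed by symbol as Adm, Egln3, Ndufa4l2, Ndrg1, Vegfa, Bnip3, Ankrd37, P4ha1, Ddit4 and Higd1a, and all 10 were found among the 31053 gene identifiers of the files. The organoids came from wild-type C57BL/6 mice of 8 to 10 weeks, and their transcripts were counted cell by cell in droplets (10x Genomics 3′ v3 chemistry). Proliferative organoids (P) stayed in complete medium, which contained WNT3A, RSPO1, EGF, Noggin and LY2157299, a TGF-β receptor inhibitor. Differentiated organoids (D) were first grown in complete medium and then moved to a medium without these 5 additions. Each condition was 1 library, the labels do not say how many mice or cultures it pooled, and library, medium and culture cannot be told apart.

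In cells with too little oxygen, prolyl hydroxylases no longer mark hypoxia-inducible factors (HIF) for destruction through VHL, and the factors accumulate and switch on genes for glycolysis, glucose transport, new vessels, matrix assembly and mitochondrial adaptation. Growth factor signalling and Myc can raise the glycolytic enzymes without low oxygen. HIF targets outside glycolysis are set beside the enzymes here as a description, and what drives either was not tested. Of the 10 genes, Adm (the vasodilator adrenomedullin) and Vegfa (the principal angiogenic growth factor) are secreted. Egln3 is an oxygen-sensing prolyl hydroxylase and P4ha1 the catalytic subunit of collagen prolyl 4-hydroxylase. Ndufa4l2 lowers respiratory chain activity in hypoxia, Bnip3 is a mitochondrial receptor for mitophagy, and Higd1a is a small inner-membrane protein of the mitochondrion. Ddit4 inhibits mTORC1 and also responds to ATF4 and to glucocorticoids, Ndrg1 is a stress-responsive cytosolic protein, and Ankrd37 is an ankyrin-repeat protein.

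All 10 are protein-coding genes with 1 entry each in the files. On GRCm38 Adm lies at chr7:110627661-110629820, Egln3 at chr12:54178981-54203860, Ndufa4l2 at chr10:127514967-127517154, Ndrg1 at chr15:66929318-66969640 and Vegfa at chr17:46016993-46032369. Bnip3 lies at chr7:138890836-138909519, Ankrd37 at chr8:45996902-46005707, P4ha1 at chr10:59323296-59373304, Ddit4 at chr10:59949669-59951834 and Higd1a at chr9:121848563-121858362. Adm, Ndufa4l2, Ndrg1, Bnip3, Ankrd37 and Higd1a overlap an annotated gene on the opposite strand, none of the 10 overlaps one on its own strand, and whether the counting used strand is not given in the sources used here.

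HIF dimers recognise a short core, ACGTG or GCGTG, and promoter sequences are shown because most of these genes were high in the same library and tended to occur in the same cells. RefSeq promoter windows on GRCm38.p6 (250 bases before the start and 50 after it) were matched for 8 of the 10 genes in 9 windows, with none for Ndufa4l2 and Ndrg1. The core was searched on both strands, so that it also reads CACGT or CACGC, and a palindromic CACGTG counted as 2 overlapping cores. At least 1 core lay in 8 of the 9 windows and at least 2 lay in 7. Of all 32851 RefSeq windows given, 43.8% held at least 1 core, and of the 13499 windows with 54 to 73% GC, the range of the 9 windows, 61.4% did. At least 2 cores lay in 20.6% of all windows and in 33.0% of those in that GC range. The glycolysis list held a core in 27 of its 34 windows. The upstream parts of 5 genes are printed 5′ to 3′ along the gene's own strand with the cores in capitals, without bases of annotated exons: Adm (chr7:110627407-110627656, plus strand), Egln3 (chr12:54203875-54204124, minus strand), Bnip3 (chr7:138909520-138909756, minus strand), P4ha1 (chr10:59323046-59323295, plus strand) and Ddit4 (chr10:59951835-59952020, minus strand). Ddit4 is included because its level did not follow that of the other 4.
Adm: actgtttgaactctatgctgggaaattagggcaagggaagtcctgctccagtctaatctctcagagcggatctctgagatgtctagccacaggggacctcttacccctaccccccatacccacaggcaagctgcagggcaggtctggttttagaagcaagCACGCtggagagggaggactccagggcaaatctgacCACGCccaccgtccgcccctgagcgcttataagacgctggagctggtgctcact
Egln3: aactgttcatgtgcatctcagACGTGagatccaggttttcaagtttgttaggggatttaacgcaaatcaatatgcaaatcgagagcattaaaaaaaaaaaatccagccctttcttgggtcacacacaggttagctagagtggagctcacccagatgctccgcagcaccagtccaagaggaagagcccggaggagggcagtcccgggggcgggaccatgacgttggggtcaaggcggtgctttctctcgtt
Bnip3: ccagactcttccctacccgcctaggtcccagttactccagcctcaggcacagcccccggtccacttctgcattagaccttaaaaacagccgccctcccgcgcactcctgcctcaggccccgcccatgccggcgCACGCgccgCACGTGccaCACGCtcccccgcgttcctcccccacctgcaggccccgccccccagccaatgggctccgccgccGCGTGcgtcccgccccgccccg
P4ha1: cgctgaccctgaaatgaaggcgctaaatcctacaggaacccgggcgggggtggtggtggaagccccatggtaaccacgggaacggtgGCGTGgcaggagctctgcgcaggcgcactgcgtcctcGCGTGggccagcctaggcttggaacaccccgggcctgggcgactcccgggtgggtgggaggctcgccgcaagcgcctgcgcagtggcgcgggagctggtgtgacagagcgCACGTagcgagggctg
Ddit4: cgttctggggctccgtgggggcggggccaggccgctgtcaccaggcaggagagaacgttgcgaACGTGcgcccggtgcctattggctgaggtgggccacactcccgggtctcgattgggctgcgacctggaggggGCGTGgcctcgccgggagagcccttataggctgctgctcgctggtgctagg
The Bnip3 sequence had the most cores, 5, and the Egln3 sequence had 1, 229 bases before the start. Ddit4 had 2, as many as Adm. A match in these letters is a description of the window and not evidence of binding.

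After the filter on cells (over 800 genes detected and at most 12% mitochondrial UMIs), 6818 of 8194 barcodes were kept in P and 4896 of 6975 in D, with 26681469 and 20305621 UMIs. A UMI, or unique molecular identifier, marks 1 captured RNA molecule, and levels are given as UMIs per 1000000 UMIs of the library (CPM) with exact Poisson 95% intervals that cover counting error only. Markers of the epithelium were present in both libraries, with Krt5 at 3534 CPM in P and 3954 CPM in D. The share of UMIs from ribosomal protein genes was 36.8% in P and 21.003% in D, and over the 8939 genes that reached 100 UMIs in both libraries the median log2 ratio of D over P was 0.42. Ratios are therefore also given after that shift was removed. The libraries shared 10 barcodes, 6 of them among kept cells. UMIs of fibroblast, leukocyte and smooth muscle markers were rare in P (53, 26 and 31) and more numerous in D (1270, 411 and 841, most from Dcn, Laptm5 and Acta2), whereas endothelial markers had 138 in P and 67 in D and erythroid markers none.

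Of the 10 genes, 8 were at least 2-fold higher in P organoids, and none was at least 2-fold higher in D organoids. Over all 10719 genes with at least 100 UMIs in both libraries together, 4.73% were at least 2-fold higher in P and 13.4% at least 2-fold higher in D. With the shift of the median gene removed, 9 of the 10 genes and 8.62% of all genes were at least 2-fold higher in P. The median log2 ratio of D over P was −2.94 for the 10 genes and 0.41 for all genes. Summed over the 10 genes, the level was 1150.5 CPM in P and 268.9 CPM in D. Most of the 5461 UMIs behind the D sum were those of Ddit4 (1749) and Higd1a (2023), the 2 genes that differed least between the libraries. With 1 library per condition there is no replicate check and no p-value. The 10 genes and all lists were chosen with earlier results of these data known, so their place beside all genes is a description and not a test. The dissociation response, 12 early genes that enzymatic dissociation induces, was lower in P (1484 CPM) than in D (3014 CPM), with 6 of its 12 genes at least 2-fold higher in D and none in P. The 4 of them with the largest ratios were Atf3 (15.6 and 74.95 CPM), Dusp1 (64.7 and 238.5 CPM), Egr1 (85.6 and 266.7 CPM) and Fos (203.4 and 555.6 CPM). The proliferation markers differed as well, with 10 of 12 at least 2-fold higher in P, a median log2 ratio of −2.79 and sums of 262.8 CPM in P and 43.7 CPM in D, and the luminal markers summed to 20.8 CPM in P and 1245 CPM in D. The part of these lists in the values was not tested.

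The mitochondrial gene Ndufa4l2 had the widest gap of the 10, with 2438 UMIs (91.4 CPM, 87.8 to 95.1) in P and 25 UMIs (1.23 CPM, 0.797 to 1.82) in D. That ratio was 74.2-fold (exact conditional binomial 95% interval 50.2 to 115), and Ndufa4l2 ranked 11 of 10719 among genes ordered toward P. It was detected in 12.9% of P cells and in 6 of 4417 D cells once each cell had been thinned to the same depth of 2100 UMIs. Bnip3 stood at 148.3 CPM (143.7 to 153) in P and 20.6 CPM (18.7 to 22.7) in D, a ratio of 7.19-fold. Higd1a, by contrast, was well expressed in both libraries, at 186.4 CPM (181.2 to 191.6) in P and 99.6 CPM (95.3 to 104.1) in D. Its ratio was 1.87-fold, or 2.51-fold after the shift was removed.

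Of the hydroxylases, Egln3 was at 261.9 CPM (255.8 to 268.2) in P and 15.4 CPM (13.8 to 17.2) in D, a 16.99-fold difference. It was detected in 35.9% of P cells and 2.88% of D cells at equal depth. P4ha1 was at 52.1 CPM (49.4 to 54.9) in P and 11.03 CPM (9.63 to 12.6) in D, a 4.72-fold difference. Both hydroxylases therefore differed in the same direction, with a smaller ratio for the collagen enzyme.

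For the secreted factors, Adm measured 49.997 CPM (47.3 to 52.8) in P against 6.11 CPM (5.08 to 7.28) in D, and Vegfa 87.8 CPM (84.3 to 91.4) against 8.52 CPM (7.3 to 9.89). Their ratios were 8.19-fold (6.81 to 9.92) and 10.3-fold (8.83 to 12.1). Ndrg1 measured 110.2 CPM (106.2 to 114.2) in P and 8.52 CPM (7.3 to 9.89) in D, a ratio of 12.9-fold. Ankrd37 measured 76.2 CPM (73 to 79.6) in P and 11.7 CPM (10.3 to 13.3) in D, a ratio of 6.5-fold. The intervals of these 4 genes cover counting error only and do not measure the spread between cultures.

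Ddit4 was the exception. It stood at 86.2 CPM (82.8 to 89.8) in P and 86.1 CPM (82.1 to 90.3) in D, and was detected in 16.3% of P cells and 15.6% of D cells at equal depth. The log2 ratio of D over P was −0.0018 (−0.09 to 0.09), which became −0.42 once the shift of the median gene was removed. The 11 genes of the ATF4 response, a stress programme to which Ddit4 also belongs, were split between the libraries: 2 of the 9 with enough UMIs were at least 2-fold higher in P (Psat1, 34.3 against 10.1 CPM, and Slc7a11, 29.9 against 13.7 CPM) and 2 in D (Nupr1, 920.9 CPM in P and 3355 CPM in D, and Sesn2, 9.07 and 19.7 CPM). After the shift was removed the counts were 4 in P and 1 in D, while the summed level, most of it from Nupr1, was 1227 CPM in P and 3615 CPM in D.

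**Figure D1:**
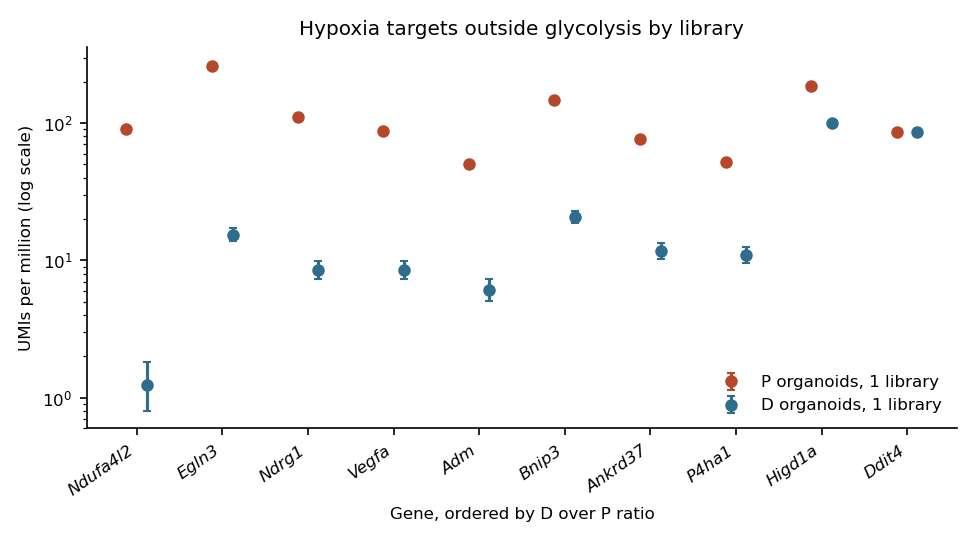
Level of each of the 10 genes in the P and D library, in CPM on a log axis, ordered by the ratio of D over P; bars are exact Poisson 95% intervals and each condition is 1 library. The P points of 9 genes lie above their D points, from a 74.2-fold gap for Ndufa4l2 to 1.87-fold for Higd1a, while the points of Ddit4 coincide at 86.2 and 86.1.

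Other genes of the same pathway were read from lists. Among 17 further HIF targets, 14 had enough UMIs, 7 were at least 2-fold higher in P and none in D, and the median log2 ratio of D over P was −1.01. The widest gaps were those of Car12 (a membrane carbonic anhydrase, 61.1 CPM in P and 0.591 CPM in D), Ak4 (a mitochondrial adenylate kinase, 10.3 and 0.443 CPM), Ero1l (the oxidase of disulfide bond formation, 317.8 and 22.01 CPM) and Stc2 (stanniocalcin 2, 7.91 and 2.56 CPM). Of 8 HIF subunits and regulators, 7 had enough UMIs and only Egln1, a prolyl hydroxylase that is itself a HIF target, was at least 2-fold higher in P (126.3 against 52.0 CPM). Epas1, which encodes HIF-2α, was at 17.7 CPM in P and 32.2 CPM in D, Egln2 at 27.2 and 49.6 CPM, and Vhl at 6.56 and 8.08 CPM. The median log2 ratio of these 7 was 0.23, which turned to −0.19 after the shift was removed.

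The 22 genes of glycolysis and glucose transport differed in the same direction as the 10. Of these, 20 had enough UMIs, and 15 were at least 2-fold higher in P and none in D, a count that became 19 after the shift was removed. Their summed level was 7174 CPM in P and 2379 CPM in D. The largest ratios among them were those of the lactate exporter Slc16a3 (43.4 against 3.45 CPM), the phosphoglycerate kinase Pgk1 (1349.8 against 160.8 CPM) and the aldolase Aldoc (27.3 against 3.5 CPM). The smallest were those of Hk1, a hexokinase at 51.6 CPM in P and 50.6 CPM in D, and of Pfkm, Pkm and Eno1, at 1.57-fold, 1.62-fold and 1.65-fold. The median log2 ratio of D over P was −1.55 for these enzymes, nearer to 0 than the −2.94 of the 10 genes. Of 13 genes of the growth factor response, feedback regulators and early targets downstream of EGF receptor and ERK signalling, 9 had enough UMIs. Dusp6, a phosphatase induced by ERK, was at 19.7 CPM in P and 6.65 CPM in D, and Myc at 30.02 and 11.03 CPM, and these were the 2 at least 2-fold higher in P, a count that became 4 with Dusp4 and Spry2 after the shift was removed. The other 2 of the 4 most different were higher in D, Phlda1 (190.5 CPM in P and 353.3 CPM in D) and the EGF receptor ligand Hbegf (82.6 and 151.7 CPM). The median log2 ratio of the 9 was 0.14, or −0.28 after the shift was removed.

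To see which cells of the P organoids carried the 10 genes, each cell was thinned to 2100 UMIs, which left out 180 of the kept P cells and 479 of the kept D cells as too shallow. At that depth 77.0% of 6638 P cells held at least 1 of the 10 genes, 49.6% (exact binomial 95% interval 48.4 to 50.8) at least 2, and 28.9% (27.8 to 30) at least 3. Of 4417 D cells 42.3% held at least 1, 8.38% (7.58 to 9.23) at least 2, and 0.974% (0.705 to 1.31) at least 3. Before thinning, the shares with at least 2 were 66.6% in P and 21.7% in D. The 1916 P cells with at least 3 held 66.0% of all UMIs of the 10 genes in P. The variance of their summed UMIs per cell was 2.79 times the mean in P and 1.09 times the mean in D, where 1 is the value of counts drawn at 1 rate in every cell. A cell in which none was detected at this depth is not shown to lack them, and no cell type known to lack these genes was identified in which to measure the share that free RNA gives.

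The genes tended to occur in the same P cells. For each gene, P cells were divided by how many of the other 9 they carried, and for 9 of the 10 the level was higher at each step from none to at least 3. How many of all genes follow such a division was not counted, in P or in D, so the count of 9 is a description. In a like division of P cells by all 10 genes, 2660 of 5827 other genes were higher with at least 3 than with none. At least 2-fold higher were 1.99% of them. Ndrg1 went from 24.7 CPM in P cells with none of the others through 55.1 and 105.5 CPM to 259.6 CPM in those with at least 3, a 10.5-fold ratio (8.39 to 13.3). Ndufa4l2 went from 28.3 to 192.1 CPM (6.8-fold) and Adm from 18.0 to 115.1 CPM (6.39-fold). Bnip3 went from 63.9 to 288.8 CPM (4.52-fold), Egln3 from 125.3 to 524.5 CPM (4.19-fold) and Ankrd37 from 34.5 to 124.7 CPM (3.61-fold). The ratios were 2.96-fold for Vegfa, 2.72-fold for Higd1a and 2.44-fold for P4ha1. Ddit4 again followed least, from 68.0 CPM through 85.1 and 80.4 to 123.2 CPM, a 1.81-fold ratio (1.55 to 2.12). In D cells the counting intervals at none, 1 and 2 of the others overlapped for every gene but Ndufa4l2, which had 25 UMIs in all kept D cells. The D cells with at least 3 of the others were 22 to 40 a gene and held 2 to 8 UMIs of it, and in them the level of all 10 genes was above that of D cells with none. Vegfa went from 9.88 to 52.9 CPM there (5.36-fold, 1.41 to 14.5), Egln3 from 13.1 to 57.7 CPM (4.41-fold, 1.17 to 11.8) and Bnip3 from 21.2 to 88.2 CPM (4.15-fold, 1.32 to 9.96). For Ndufa4l2 the ratio rested on 2 UMIs in each of these D groups (65.4-fold, 4.74 to 902), and the intervals of the other 6 genes included 1. The D ratios of Egln3, Bnip3 and Vegfa had intervals that included the P ratios, and the difference between the libraries was not tested.

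**Figure D2:**
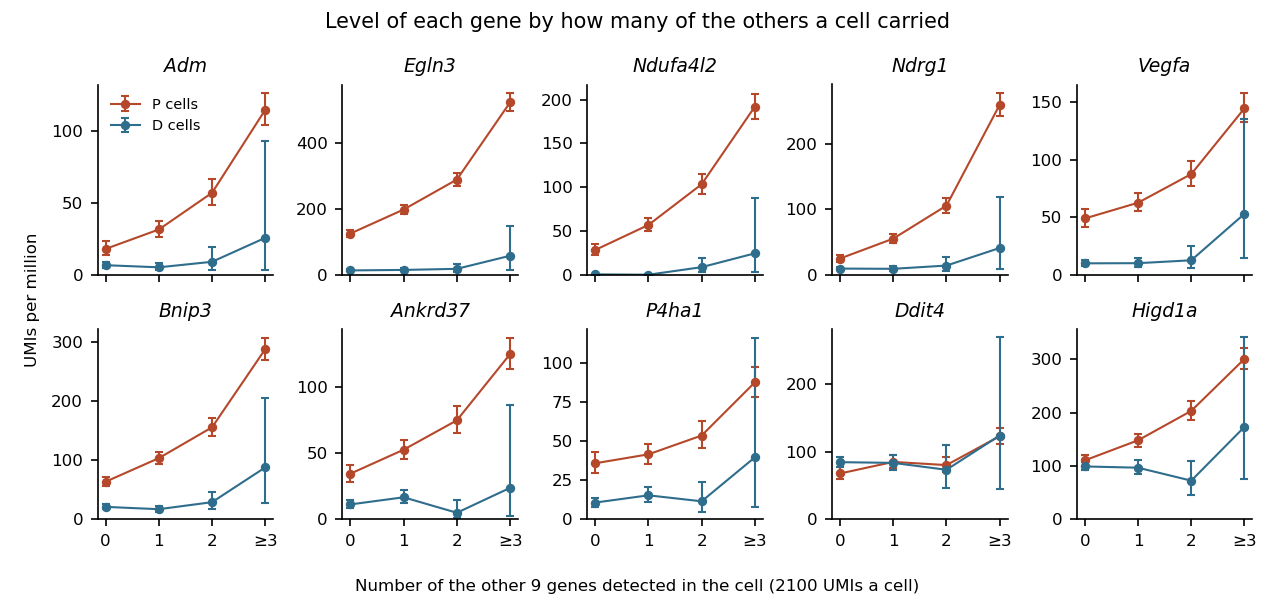
Level of each gene, in CPM, in cells that carried 0, 1, 2 or at least 3 of the other 9 genes, for P cells and D cells thinned to 2100 UMIs; bars are exact Poisson 95% intervals, and the last D point of each gene rests on 22 to 40 cells and 2 to 8 UMIs. In P cells 9 genes climb at every step, most steeply Ndrg1, from 24.7 to 259.6, and how many of all genes would do so was not counted. In D cells the points at 0, 1 and 2 stay close together and the last one is higher with a wide interval (Egln3 from 13.1 to 57.7).

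Over the 6638 thinned P cells, Pearson's r between the log-transformed UMIs of pairs of the 10 genes ranged from 0.02 (Ddit4 and Higd1a) to 0.28 (Egln3 and Ndrg1) with a median of 0.09, and in D cells the median was 0.01. Cells of 1 library share their culture and their preparation, the counts are sparse, and these values are a description. The 10 other genes whose UMIs followed the sum of the 10 most closely over the P cells, among genes with at least 500 UMIs in P, were Ero1l (r = 0.46), Aldoa (0.43), Pgk1 (0.39), Neat1 (0.36), Fxyd4 (0.34), Gapdh (0.33), Pgam1 (0.29), Mif (0.29), Sprr1a (0.29) and Ldha (0.28). Aldoa, Pgk1, Gapdh, Pgam1 and Ldha are on the glycolysis list and Ero1l and Mif on that of further HIF targets. Neat1 is a nuclear long noncoding RNA, Fxyd4 regulates the sodium pump, and Sprr1a is a component of the cornified envelope.

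Glycolysis was higher in P cells that carried more of the hypoxia targets. The summed level of the glycolysis list was 4726 CPM in P cells with none of the 10, 5857 CPM with 1, 7245 CPM with 2 and 10155 CPM with at least 3, a 2.15-fold ratio (2.109 to 2.189) between the last and the first. Further HIF targets went from 2560 to 4998 CPM over the same cells. In D the 43 cells with at least 3 of the 10 were also above the cells with none, by 1.81-fold (1.63 to 2.01) for glycolysis and 1.69-fold (1.51 to 1.89) for further HIF targets, while D cells with 1 or 2 had glycolysis levels of 2418 and 2535 CPM beside 2314 CPM with none. In P the growth factor response stayed between 395.2 and 425.4 CPM, although within clusters its ratio between the same cells ran from 0.569 to 1.27. Over genes, 8 of the 18 glycolysis genes with enough UMIs and 5 of 11 further HIF targets were at least 2-fold higher in P cells with at least 3 of the 10 than in those with none, against 1.99% of the 5827 genes tested with the 10 left out. None of 5 growth factor response genes was, and their directions were mixed, with 2 of the 5 higher in the cells with at least 3. The 5 further HIF targets were Ero1l, P4ha2, Plod2, Bhlhe40 and Kdm3a, of which Ero1l (82.5 CPM with none and 688.4 CPM with at least 3) had the largest ratio. All but Ero1l were named after their values were seen.

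Single glycolysis genes differed in how far they followed. Slc16a3 was at 19.9 CPM in P cells with none of the 10 and 80.8 CPM with at least 3, and the glucose transporter Slc2a1 at 47.3 and 167.3 CPM. Pfkp, Pgk1, Aldoa, Gapdh, Pgam1 and Tpi1 made up the rest of the 8. Ldha (480.2 and 936.5 CPM), Pkm (521 and 978.7 CPM) and Hk2 (132.1 and 246.0 CPM) were just under 2-fold. The monocarboxylate transporter Slc16a1, which differed 2.91-fold between the libraries, did not follow the hypoxia targets within P (21.5 CPM with none and 17.6 CPM with at least 3, log2 ratio −0.28, −0.78 to 0.22). Among further HIF targets Car12 was lower in the cells with at least 3 (60.9 CPM) than in those with none (86.0 CPM), although it had the widest gap between the libraries. Dusp6 was likewise at 13.9 CPM with at least 3 and 28.3 CPM with none.

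**Figure D3:**
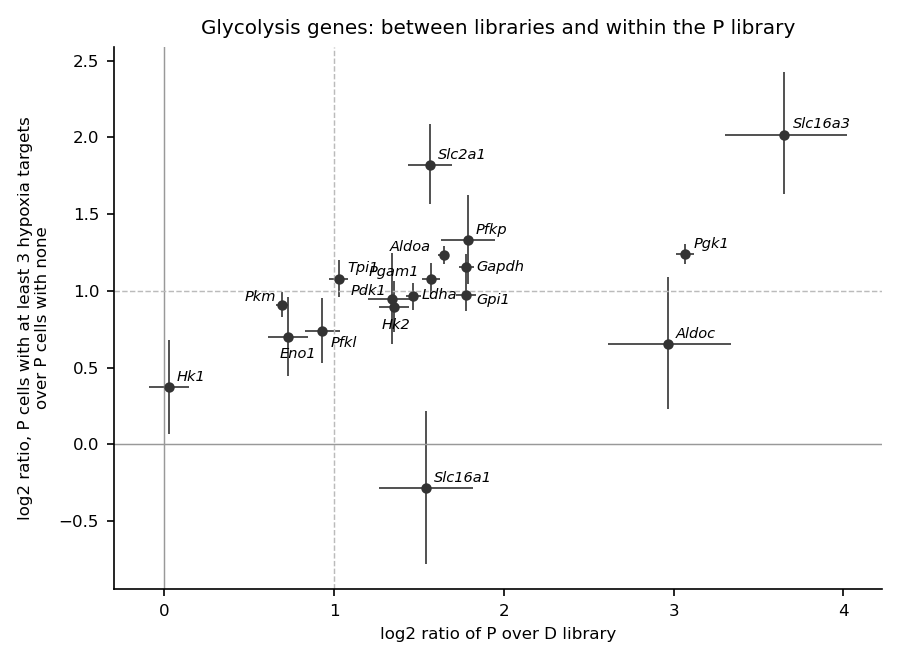
Each point is a glycolysis gene with enough UMIs in both comparisons, with the log2 ratio of the P over the D library on the x axis and the log2 ratio of P cells carrying at least 3 hypoxia targets over P cells carrying none on the y axis; bars are exact conditional binomial 95% intervals and dashed lines mark 2-fold. Slc16a3 is high on both axes, Slc16a1 is above 2-fold on the x axis and below 0 on the y axis, and Hk1 is near 0 on the x axis.

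The gap in glycolysis between the libraries was smaller, but present, in cells without a detected hypoxia target. Detection of none does not make P and D cells equal in these genes. Over all thinned cells the mean was 2.43 UMIs of the 10 genes a cell in P and 0.568 in D. In the 1529 P cells with none of the 10, the glycolysis list summed to 4726 CPM, and in the 2549 D cells with none to 2314 CPM, a 2.04-fold ratio (1.99 to 2.09) beside the 2.99-fold ratio over all thinned cells. Without mitochondrial and ribosomal protein UMIs in the total, the ratio was 2.66-fold in the cells with none, beside 3.79-fold over all thinned cells. Of the 16 glycolysis genes with enough UMIs, 6 were at least 2-fold higher in the P cells with none, against 2.26% of the 7087 genes tested, namely Pgk1 (5.26-fold), Slc16a1 (3.11-fold), Gpi1 (2.47-fold), Gapdh (2.37-fold), Aldoa (2.08-fold) and Ldha (2.03-fold). Slc2a1 (1.57-fold), Tpi1 (1.36-fold) and Pkm (1.2-fold) were nearer to equal, and Hk1 was at 46.1 CPM in these P cells and 51.7 CPM in these D cells. Further HIF targets in the same cells had a median log2 ratio of P over D of −0.18 over 10 genes, beside −0.41 over all 7087 genes, with Car12, Ero1l and Fam162a at least 2-fold higher. Their summed level was 1.21-fold higher in P (1.18 to 1.24), or 1.57-fold without mitochondrial and ribosomal protein UMIs. In D organoids the 43 cells with at least 3 of the 10 had a glycolysis level of 4197 CPM, below that of P cells with none (4726 CPM).

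**Figure D4:**
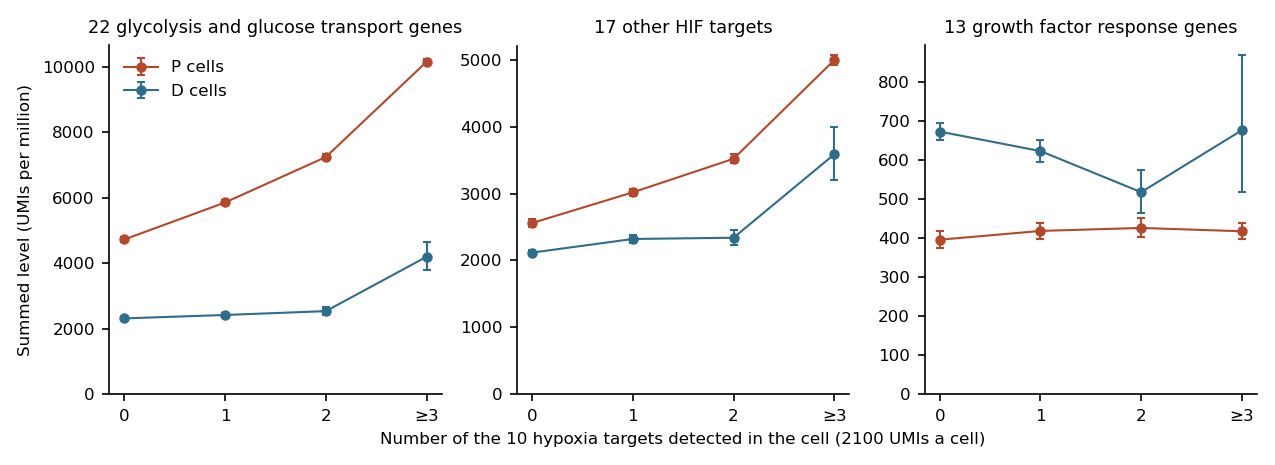
Summed level, in CPM, of the glycolysis list, of further HIF targets and of the growth factor response in cells carrying 0, 1, 2 or at least 3 of the 10 hypoxia targets, for P and D cells thinned to 2100 UMIs; bars are exact Poisson 95% intervals and D cells with at least 3 number 43. Glycolysis climbs from 4726 to 10155 in P cells and from 2314 to 4197 in D cells, most of the latter at the last step. The summed growth factor response lies between 395.2 and 425.4 in P cells, although its ratio between at least 3 and none ran from 0.569 to 1.27 within clusters.

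Between P cells with and without detected growth factor response genes, the level of the hypoxia targets was similar over all P cells, but the ratio varied between clusters. P cells with at least 2 growth factor response genes detected (1052 cells) had 1241 CPM of the 10 hypoxia targets, and P cells with none (3366 cells) had 1204 CPM, a 1.03-fold ratio (0.987 to 1.08). Glycolysis differed 1.05-fold between these cells (1.04 to 1.07). The squamous markers were 2.99-fold higher in the first, and 662 of these 1052 cells lay in the squamous-like of the clusters described next. Within clusters the ratio of the hypoxia targets was 0.607 (0.54 to 0.681) in the basal-like and 1.19 (1.12 to 1.26) in the squamous-like cluster. It was 0.809 (0.691 to 0.943) in the unnamed cluster P2 and 0.94 (0.724 to 1.21) in the proliferative-like cluster. Cycling P cells, in which at least 2 of 12 proliferation genes were detected, had 958 CPM of the 10 genes in 336 cells, and other P cells had 1166 CPM in 6302 cells, a 0.822-fold ratio (0.76 to 0.888). Their glycolysis level was 0.785 times that of other P cells.

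Cells with at least 3 of the 10 genes differed in other measures too. Their mitochondrial share was 4.72% and that of P cells with none 6.44%, their ribosomal share 36.6% and 38.4%, and the squamous markers summed to 2160 and 1260 CPM. Much of the squamous difference was that of Sprr1a (1078 and 196 CPM), and 4 of 6 squamous genes with enough UMIs were higher in the cells with at least 3. The dissociation response was 1476 and 1406 CPM, and the ATF4 response 1488 and 875 CPM. Much of the ATF4 difference was that of Nupr1 (1166 and 546 CPM), and 4 of 8 ATF4 response genes with enough UMIs were higher in the cells with at least 3. Median UMIs before thinning were 3411 and 3458. The part of these measures in the values above was not tested.

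Clusters were built from variable features that left out the 10 genes, the further HIF targets, the HIF regulators and the glycolysis genes. At resolution 0.2 the P library gave 4. Cluster P0 (2563 cells, led by Ctla2a, Nbl1, Scnn1b, Sparc and Dll1) had 5 of 7 basal markers raised and was called basal-like, and P1 (2493 cells, led by Cnfn, Sprr3, Krt6b, Sprr2f and Calml3) had 9 of 10 squamous markers raised and was called squamous-like, with all 9 intermediate markers raised too. P2 (1416 cells, led by Fmo2, Mmp7, Agr2, Slc7a11 and Gm26802) stayed unnamed, and P3 (346 cells, led by Ccna2, Hmmr, Nusap1, Ccnb1 and Aurka) had all 12 proliferation markers raised and was called proliferative-like. The 10 genes summed to 1334 CPM in P0, 1270 CPM in P1, 879 CPM in P3 and 631 CPM in P2. The highest was 2.11 times the lowest (2.03 to 2.2). Every P cluster was above every D cluster, whose sums ran from 245 to 336 CPM. Within each P cluster glycolysis was higher in cells with at least 3 of the 10 genes than in cells with none, by 2.27-fold in P0, 1.96-fold in P1, 1.77-fold in P2 and 1.79-fold in P3.

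Between the basal-like and the squamous-like cluster 8 of the 10 genes differed by less than 2-fold. Adm was at 91.9 CPM in P0 and 35.1 CPM in P1, a 2.62-fold ratio, P4ha1 at 72.6 and 44.2 CPM (1.64-fold) and Ndufa4l2 at 135.6 and 84.0 CPM (1.61-fold). Ndrg1 (1.43-fold), Ddit4 (1.42-fold) and Egln3 (1.25-fold) were also higher in P0. Ankrd37 was the reverse, at 32.7 CPM in P0 and 120.3 CPM in P1, a 3.68-fold ratio, and Higd1a (1.45-fold), Bnip3 (1.34-fold) and Vegfa (1.18-fold) leaned the same way. Of 9486 genes with at least 100 UMIs in P, 9.3% were at least 2-fold higher in P0 and 7.71% in P1, and of the 10 genes Adm alone passed that fold in P0 and Ankrd37 alone in P1, shares near those of all genes. The 10 genes were not among the features that built the clusters, and these ratios carry no test. Outside the 10, Slc2a1 was 2.2-fold higher in P0, and Ero1l 1.52-fold and Pgk1 1.31-fold higher in P1, named after their values were seen.

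**Figure D5:**
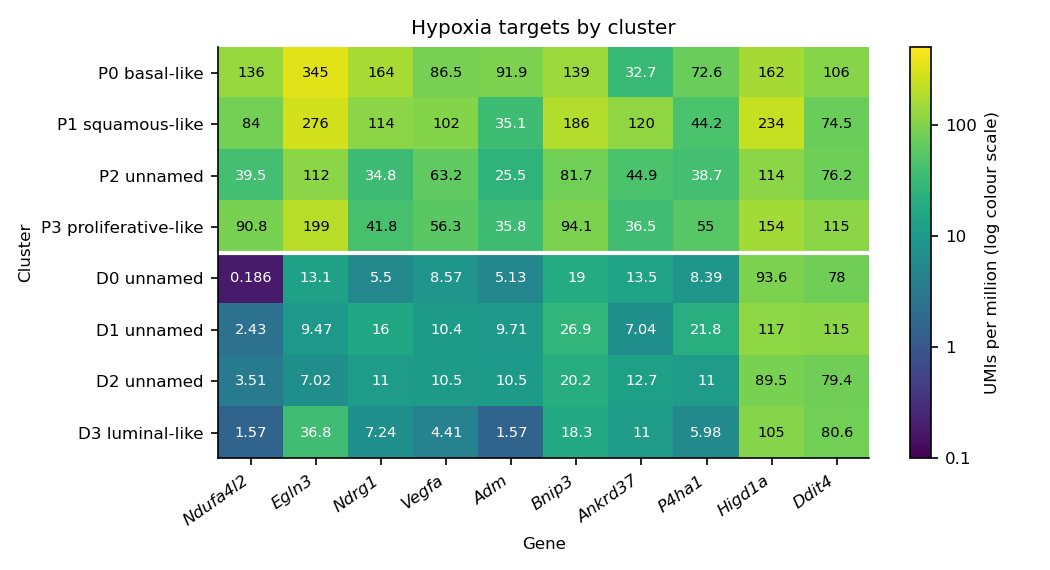
Level of the 10 genes in each cluster of the P and D libraries at resolution 0.2, in CPM as printed in the cells and as colour on a log scale. Adm is highest in P0 (91.9) and Ankrd37 in P1 (120.3), P2 is the lowest P cluster for most genes, and in the D clusters only Higd1a and Ddit4 come near the P values.

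At resolution 0.4 the P cells with these genes separated further, into 6 clusters whose sums ran from 630 to 2555 CPM, a 4.06-fold range. The highest, with 782 cells all from P0, was led by Ctla2a, Nbl1, Stbd1, Fstl3 and Itpk1 and had 5 of 7 basal markers raised. Of its thinned cells 70.1% (66.7 to 73.3) carried at least 3 of the 10 genes and 3.13% carried none. The second, with 1400 cells all from P1, had 9 of 10 squamous markers raised, a sum of 1757 CPM and 51.3% (48.6 to 53.9) of cells with at least 3. These 2 clusters made up 11.5% and 20.5% of the P cells and held 28.1% and 37.3% of the P cells with at least 3 of the genes. Most other cells of P0 (1764) went to a cluster led by Mgp, Smoc2, Ccl20, Ptprz1 and C1s1 that summed to 740.3 CPM, with 14.6% carrying at least 3. The basal-like cells thus fell into a group of 782 cells with high levels and a larger group with lower ones. Glycolysis stood at 11265 CPM in the group of 782 cells and 5264 CPM in the larger group, and the growth factor response at 129.996 and 258.5 CPM.

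In the cluster of 782 cells Ndrg1 stood at 407.7 CPM and Ndufa4l2 at 298.2 CPM, and Adm at 191.8 CPM, each higher than in any other of the 6. The lowest levels of these 3 genes, in a cluster of 1257 cells led by Cyp2f2, Ccr2, Agr2, Cxcl15 and S100g, were 30.3, 34.7 and 14.6 CPM. Egln3 (642.9 CPM), Bnip3 (276.5 CPM), Vegfa (143.4 CPM), P4ha1 (118.6 CPM) and Ddit4 (143 CPM) were also highest in the cluster of 782 cells. Ankrd37 (167 CPM) and Higd1a (297.8 CPM) were highest in the squamous-like cluster of 1400 cells. The mitochondrial share of the cluster of 782 cells was 2.61%, the lowest of the 6, and its median depth was 3043.5 UMIs. How much of its levels goes with that share was not tested.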

How the data were processed

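Single-cell libraries of P and D urothelial organoids, 1 per condition, were analysed from UMI counts per gene and barcode. The authors deposited these counts as filtered barcode matrices; the submitters' processing notes name bcl2fastq 2.19.0 and Cell Ranger 3.0.2, with the GRCm38 genome. No replicates were pooled. Barcodes with over 800 detected genes and at most 12% mitochondrial UMIs were kept, after the study's filter (at least 800 genes would keep 6826 in P, and more than 800 kept 6818). Median depth was 3405.5 UMIs per kept cell in P and 3227.5 in D.

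UMIs were summed over kept cells. Levels carry exact Poisson intervals, ratios exact conditional binomial intervals and shares exact Clopper-Pearson intervals, all at 95% and for counting error only. A gene was compared where it had at least 100 UMIs over both groups, and called at 2-fold. For shares, groups of cells and correlations, each cell was thinned to 2100 UMIs (seed 7). Cells of 1 library are not replicates, so no test was made. Clustering used Seurat 5.3.0 in R 4.3.3 with 25 components in P and 21 in D at resolution 0.2. A cluster was named from its raised markers only where its leading genes did not go against the name; all D clusters but 1, luminal-like, and P2 stayed unnamed. Doublets were scored with Scrublet in scanpy 1.11.5 and left in. Sums used Python 3.11.15, numpy 2.4.6 and scipy 1.17.1, and the ratios, intervals and thinning were tested on simulated data.

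The 10 genes and all lists were chosen with earlier results of these data known. Named genes were the 10, most but not all glycolysis genes, the 4 genes of largest ratio in each other pathway list, the 10 genes most like the sum of the 10 over P cells, and the 5 leading genes of each cluster. Cell identity lists are given by their counts or sums, and single genes that hold much of a sum were named after their values were seen. Alternatives changed the scaling, cell filter, thinning, summary over cells, doublets and clustering.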

Additional observations from a re-analysis of the deposited data

Results flagged for a closer look

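The 43 D cells with at least 3 of the 10 hypoxia targets differed from D cells with none in the opposite direction to P cells for the summed levels of 6 gene lists. Each was compared at 2100 UMIs a cell. The ratio of cells with at least 3 over cells with none was 1.70 in P and 0.701 in D for the ATF4 response, 1.05 and 0.879 for the dissociation response, and 0.885 and 1.17 for the basal markers. It was 1.74 in P and 0.887 in D for the intermediate markers, 1.62 and 0.502 for the luminal markers, and 1.71 and 0.716 for the squamous markers. Some P sums rested on few genes or UMIs. Nupr1 was at 1166 CPM with at least 3 and 546 CPM with none, and 4 of 8 ATF4 response genes with enough UMIs were higher with at least 3. Sprr1a was at 1078 and 196 CPM, and 4 of 6 squamous genes were higher with at least 3. The lower basal sum in P was largely that of Krt5 (2885 and 3868 CPM), and 3 of 7 basal genes were higher with at least 3. The luminal ratio in P came from 83 and 41 UMIs. Glycolysis, further HIF targets and HIF regulators were higher in the cells with at least 3 in both libraries (2.15 and 1.81, 1.95 and 1.69, and 1.77 and 1.59). Among the regulators in P, Egln1 was at 238.1 CPM with at least 3 and 58.6 CPM with none. Of the 5 regulators with enough UMIs there, 3 were higher with at least 3. These differences between the libraries were not tested, since each is 1 library.

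Barcodes left out by the cell filter also held the 10 genes. Per 1000000 UMIs that were not mitochondrial, the 1376 left-out P barcodes had 1234 UMIs of the 10 genes, beside 1223 in kept P cells, and the 2079 left-out D barcodes had 243.2, beside 289.6 in kept D cells. Without Ddit4 and Higd1a the left-out and kept values were 992.5 and 933.0 in P, and 96.0 and 89.6 in D, so that the order in D turned.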

How the results depend on the processing

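Of 86 alternatives over 13 results, 63 kept the value near its reported one, 23 moved it and none turned a direction. Without mitochondrial and ribosomal protein genes, the median log2 ratio of D over P became −3.27 for the 10 genes, −1.88 for glycolysis and −1.34 for further HIF targets, and with libraries scaled by the median ratio −3.36, −1.97 and −1.43. The shares of cells with at least 2 of the 10 genes followed depth: 38.3% in P and 4.92% in D at 1500 UMIs, 61.8% and 13.98% at 3000, and 66.6% and 21.7% unthinned. The log2 ratio of glycolysis between P cells with at least 3 and none (reported 1.10) was 1.06 unthinned and 1.01 without mitochondrial and ribosomal UMIs in the total. Between P and D cells with none (reported 1.03) it was 1.15 at 1500 UMIs, 0.995 at 3000, 0.92 unthinned and 1.41 without those UMIs. The log2 ratio of the 10 genes in cycling over other P cells (reported −0.28) was −0.40 with over 1000 genes and at most 10% mitochondrial UMIs, and −0.44 without the 6% of cells with the highest Scrublet score. The fold between the highest and lowest P cluster (reported 2.11) was 1.998 without those UMIs, 4.06 at resolution 0.4 and 2.22 with the described genes among the features. The causes were not tested. Scrublet's own threshold called 0 cells in either library, so that alternative was not run, and the 6% left out instead (409 P and 294 D cells) and the settings for cells with none were chosen after seeing the data. No paired analysis was possible because each condition is 1 library.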
